A study of Homo sapiens with 6 samples.

Results

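Skeletal muscle fibres conduct action potentials along their surface membrane, and a small set of channels and pump proteins sets the resting potential and carries the spike. The 8 genes described here were grouped around that set: SCN4A, CLCN1, KCNJ2, KCNJ12, KCNH1, KCNQ1, ATP1B4 and FXYD1. They were listed by function, with earlier results of these data known, and KCNQ1 was chosen by its read counts in the VP64-MyoD libraries against the others, so its values are a description with no test. All 8 had rows in the count table, 12 transcript rows in all, among 23540 named genes. CLCN1 had no read in any library. The other 7 passed the filter on low counts, and 6 of these were tested.

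As background, the sodium channel Nav1.4 (SCN4A) carries the upstroke of the muscle action potential, and the chloride channel ClC-1 (CLCN1) stabilises the resting membrane; variants of either gene are known causes of myotonia. The inward rectifiers Kir2.1 (KCNJ2) and Kir2.2 (KCNJ12) hold the membrane near the potassium equilibrium potential. In human myoblasts an EAG-type current (KCNH1) and then a Kir2.1 current are known to hyperpolarise the cell before fusion. KCNQ1 encodes Kv7.1, which repolarises heart muscle and works in epithelia with KCNE subunits. FXYD1 (phospholemman) regulates the sodium pump, and ATP1B4 belongs to the pump β-subunit family but in placental mammals is known as a protein of the inner nuclear membrane.

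Polyadenylated RNA was sequenced from 6 cultures of human skin fibroblasts, primary cells of a single line, with 2 cultures in each of 3 groups. The VP64-MyoD group carried a doxycycline-inducible lentivirus for mouse MyoD whose N-terminus was fused to VP64, an activation domain, the WT-MyoD group carried the same vector for wild-type mouse MyoD, and the untreated group was the negative control. Per the labels' protocols, puromycin removed cells without the vector, doxycycline at 3 µg/mL was added once the plates were confluent, and RNA was taken on day 10. Each vector also expressed dsRed-Express2. For the untreated cells the labels give no vector, selection, doxycycline or harvest day, so a difference from them cannot be told apart from an effect of any of these. The 2 cultures of a group are biological duplicates by the series' design text. All came from 1 line, so that the spread behind each p-value is one between cultures and not between lines. In the fit that spread was shared by the 3 groups and moderated with that of all genes.

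Library totals lay between 40997586 and 53804224 counts. All counts were even numbers, and 1 read pair stands for 2 counts. Levels are given in CPM, the count as a share of the library total after trimmed-mean (TMM) scaling, times 1000000; a value with ± is a mean with its SD over the 2 libraries of a group. The Myod1 transgene stood at 115 and 96.5 CPM with VP64-MyoD, at 758 and 1015 CPM with WT-MyoD, and at 5.09 and 1.05 CPM in untreated cells. The transgene thus differed between the forms, and a difference between them cannot be told apart from one in the amount of transgene. The 10 skeletal muscle markers summed to between 3940 and 4523 CPM with VP64-MyoD, between 812 and 868 CPM with WT-MyoD, and between 5.23 and 6.05 CPM in untreated cells. In bulk RNA, fewer cells of a type and less RNA per cell cannot be told apart, and the part of the muscle marker level in any result below was not tested.

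Promoters were read for the members because MyoD binds E-boxes, the letters CANNTG. The RefSeq table of the GRCh38.p14 build held promoters for 5 of the 8 genes. The 250 bases before the annotated start are printed 5′ to 3′ for 4 of them, chosen for their contrasting patterns: KCNJ2, whose level lay above untreated with one form and below it with the other; ATP1B4, called higher with VP64-MyoD and not called with WT-MyoD; KCNH1, lower with both; and CLCN1, with no read. Capitals mark every CANNTG.
KCNJ2 promoter (chr17:70169282-70169531, plus strand): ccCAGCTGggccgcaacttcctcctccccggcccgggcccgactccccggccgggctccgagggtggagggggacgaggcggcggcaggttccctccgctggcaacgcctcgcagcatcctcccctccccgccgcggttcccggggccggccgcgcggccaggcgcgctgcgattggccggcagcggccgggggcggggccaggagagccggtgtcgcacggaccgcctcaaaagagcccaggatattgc
ATP1B4 promoter (chrX:120361839-120362088, plus strand): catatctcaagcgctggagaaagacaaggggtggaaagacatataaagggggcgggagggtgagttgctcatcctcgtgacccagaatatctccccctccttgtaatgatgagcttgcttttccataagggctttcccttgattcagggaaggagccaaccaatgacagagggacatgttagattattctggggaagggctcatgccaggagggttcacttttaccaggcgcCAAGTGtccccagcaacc
KCNH1 promoter (chr1:211134149-211134398, minus strand): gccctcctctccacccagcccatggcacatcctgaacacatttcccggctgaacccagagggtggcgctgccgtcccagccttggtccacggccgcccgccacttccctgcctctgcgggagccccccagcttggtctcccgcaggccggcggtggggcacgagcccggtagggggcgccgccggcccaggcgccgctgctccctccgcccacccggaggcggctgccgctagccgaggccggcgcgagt
CLCN1 promoter (chr7:143315861-143316110, plus strand): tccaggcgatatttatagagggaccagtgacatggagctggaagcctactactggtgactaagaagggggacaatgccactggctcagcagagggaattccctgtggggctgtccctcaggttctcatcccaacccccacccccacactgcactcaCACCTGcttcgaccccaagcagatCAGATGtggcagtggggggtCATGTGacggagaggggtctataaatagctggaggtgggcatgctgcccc
KCNJ2 held 1 E-box, CAGCTG, at its far end, in a stretch of 77.6% G and C. ATP1B4 held 1, CAAGTG, close to the start site. KCNH1 held none, and CLCN1 held 3 different ones. Each of the 3 annotated FXYD1 starts also had 1, CAGCTG at the outer pair and CACGTG at the middle one. CANNTG reads the same way on both strands. Of 35116 human promoter windows of this length, 61.8% held at least 1 CANNTG and 14.0% at least 1 CAGCTG, which is itself a CANNTG. A match is a description of letters and no evidence of binding, and its absence says only that these letters are not in this window.

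SCN4A, the sodium channel of the muscle spike, was almost silent in untreated cells and rose with both MyoD forms. It stood at 31.4 and 30.0 CPM with VP64-MyoD, at 32.4 and 35.5 CPM with WT-MyoD, and at 0.0802 and 0.182 CPM in untreated cells. Every MyoD library lay far above both untreated libraries, which held 2 and 4 read pairs. Relative to untreated cells the log2 fold change was 7.88 for VP64-MyoD (SE 0.18, edgeR adjusted p = 6.9e-15) and 8.02 for WT-MyoD (SE 0.18, edgeR adjusted p = 1.1e-14). From read pairs alone the ratio over untreated was 240.1 with VP64-MyoD, with an exact 95% interval from 110.1 to 655, and 264 with WT-MyoD, with an interval from 121 to 720. These intervals cover counting error only. Without untreated replicate 2 the log2 fold changes were 8.53 for VP64-MyoD and 8.68 for WT-MyoD. Untreated replicate 1 had 127 transgene read pairs and 2 of SCN4A, and untreated replicate 2 had 23 and 4. These SCN4A counts are too few to rank the 2 libraries, and a link to the transgene was not tested. The authors' deposited table, from the same libraries, gives log2 fold changes over untreated of 7.87 for VP64-MyoD and 8.02 for WT-MyoD.

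Between the MyoD forms SCN4A was not called different, although its 2 VP64-MyoD libraries lay below both WT-MyoD libraries. The log2 fold change of VP64-MyoD over WT-MyoD was -0.14, with a 95% interval from -0.33 to 0.04 (edgeR adjusted p = 0.17). That interval holds no change as large as a log2 fold change of 1, in either direction. The transgene and the summed muscle markers both differed several-fold between the same libraries.

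CLCN1, the chloride channel that sets most of the resting conductance of mature fibres, had 0 read pairs in each of the 6 libraries, on both of its transcript rows. Over a group, 0 read pairs allow a level of up to 0.0606 CPM with VP64-MyoD, 0.0614 CPM with WT-MyoD and 0.0639 CPM in untreated cells, counting 3 read pairs as the limit. Expression was thus not detectable at this depth in any group, and no comparison was made. Per transcript length, the VP64-MyoD limit for CLCN1 was 0.0191 CPM per kilobase, against 3.94 ± 0.13 CPM per kilobase for SCN4A in the same libraries (SD, n = 2).

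**Figure D1:**
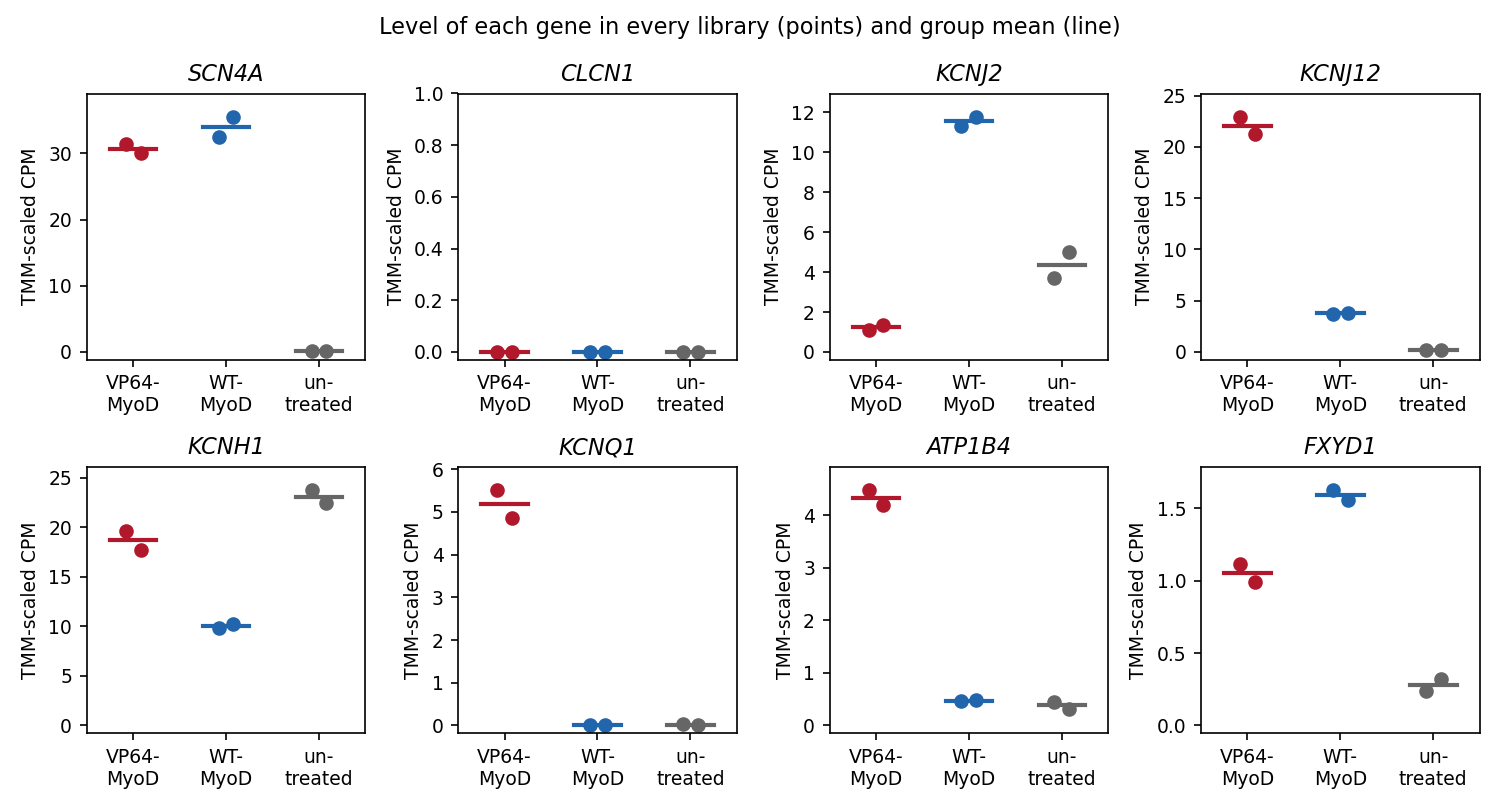
Level of the 8 genes in TMM-scaled CPM on a linear axis from 0, by group, with each library as a point and the group mean as a line. SCN4A is near 30 CPM with both MyoD forms, CLCN1 is at 0 in all 6 libraries, KCNJ2 is lowest with VP64-MyoD and highest with WT-MyoD, and KCNQ1 and ATP1B4 stand out only with VP64-MyoD.

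The inward rectifiers KCNJ2 and KCNJ12 moved in opposite directions with VP64-MyoD, while both rose with WT-MyoD. KCNJ2 was lower with VP64-MyoD and higher with WT-MyoD than in untreated cells. It stood at 1.12 and 1.34 CPM with VP64-MyoD, at 11.3 and 11.8 CPM with WT-MyoD, and at 3.73 and 5.00 CPM in untreated cells. No library of one group overlapped another group. Set against untreated cells, the log2 fold change was -1.82 for VP64-MyoD (SE 0.19, edgeR adjusted p = 5.1e-07) and 1.41 for WT-MyoD (SE 0.15, edgeR adjusted p = 7.4e-07). Between the forms KCNJ2 was 9.36-fold lower with VP64-MyoD (log2 fold change of -3.23 with SE 0.17, adjusted p = 3.4e-10 by edgeR). The authors' deposited table likewise has opposite signs, -1.83 for VP64-MyoD and 1.41 for WT-MyoD. It comes from the same libraries and is no independent support.

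KCNJ2-AS1 overlaps exons of KCNJ2 on the other strand in the GENCODE annotation, and the Nextera libraries carry no strand information: reads of the overlap cannot be told apart. KCNJ2-AS1 had 3 and 9 read pairs with VP64-MyoD, 39 and 22 with WT-MyoD, and 11 and 12 in untreated cells. KCNJ2 itself had 26 and 35 read pairs with VP64-MyoD, 321 and 242 with WT-MyoD, and 93 and 110 in untreated cells. KCNJ2-AS1 was lower in VP64-MyoD than in WT-MyoD (log2 fold change of -2.34 with SE 0.43, adjusted p = 2.8e-04 by edgeR), the direction seen for KCNJ2.

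KCNJ12 rose with both forms, and more so with VP64-MyoD. It stood at 22.9 and 21.2 CPM with VP64-MyoD, at 3.71 and 3.80 CPM with WT-MyoD, and at 0.160 and 0.227 CPM in untreated cells. The 3 groups formed 3 separate steps. Relative to untreated cells the log2 fold change was 6.83 for VP64-MyoD (SE 0.19, edgeR adjusted p = 4.4e-14) and 4.27 for WT-MyoD (SE 0.23, edgeR adjusted p = 2.6e-10). Between the forms it was 5.88-fold higher with VP64-MyoD (log2 fold change of 2.56 with SE 0.12, adjusted p = 5.0e-11 by edgeR).

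Reads of KCNJ12 can fall on KCNJ18, which encodes the muscle channel Kir2.6. In GENCODE release 29 (GRCh38) the coding sequences of both are 1302 bases long and differ at 13 positions, 99.0% identity, against 69.6% between KCNJ12 and KCNJ2. Of all 50-base windows of the KCNJ12 coding sequence, 57.9% occur without a difference in KCNJ18. The 60 coding bases from 295 to 354 hold 3 of the 13 differences and are shown as an example of how close the sequences are; capitals mark the differing positions.
KCNJ12 coding strand: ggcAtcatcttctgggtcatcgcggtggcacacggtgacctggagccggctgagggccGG
KCNJ18 coding strand: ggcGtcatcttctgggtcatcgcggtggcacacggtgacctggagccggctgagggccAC
The KCNJ18 row held 57 and 57 read pairs with VP64-MyoD, 7 and 4 with WT-MyoD, and 0 and 1 in untreated cells. Of the reads on both genes, that was 9.66% and 9.30% with VP64-MyoD and 6.25% and 4.88% with WT-MyoD. With both rows summed, the log2 fold changes were 6.82 for VP64-MyoD over untreated, 4.20 for WT-MyoD over untreated and 2.62 between the forms, so each call held. The level of either paralogue alone is uncertain.

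Per transcript length, which allows levels of different genes to be compared, the inward rectifier that led changed with the form of MyoD. KCNJ12 exceeded KCNJ2 by 20.4-fold and 15.8-fold in the VP64-MyoD libraries. KCNJ2 exceeded KCNJ12 by 3.08-fold and 3.12-fold with WT-MyoD and by 23.4-fold and 22.1-fold in untreated cells. The summed level of both was 4.43 and 4.16 CPM per kilobase with VP64-MyoD, 2.79 and 2.88 with WT-MyoD, and 0.721 and 0.969 in untreated cells. Lengths are those of the GENCODE transcript paired with each RefSeq row.

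KCNH1, the EAG-type potassium channel, was the one gene of the 8 with a level above 20 CPM in untreated fibroblasts, and it was lower with both forms. It stood at 19.6 and 17.7 CPM with VP64-MyoD, at 9.85 and 10.3 CPM with WT-MyoD, and at 23.7 and 22.4 CPM in untreated cells. The groups did not overlap, with the lowest level in WT-MyoD. Set against untreated cells, the log2 fold change was -0.31 for VP64-MyoD (SE 0.09, edgeR adjusted p = 0.0062) and -1.20 for WT-MyoD (SE 0.09, edgeR adjusted p = 2.0e-08). The VP64-MyoD call ended without untreated replicate 1 (edgeR adjusted p = 0.0584) and without VP64-MyoD replicate 2 (edgeR adjusted p = 0.0986), with values from 0.0011 to 0.0986 over all settings tried. Between the forms KCNH1 was 1.86-fold higher with VP64-MyoD (log2 fold change of 0.89 with SE 0.09, adjusted p = 8.0e-07 by edgeR). Its rows for the shorter and the longer splice form shared the reads almost evenly, with the NM_002238 row at 46.4% to 52.0% of them in the 6 libraries. These forms are 8075 and 8172 bases long. How reads that fit both were assigned was not tested, so the split is no measure of splice form use.

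KCNQ1 was chosen because its reads came from one group, so the values that follow carry no test. It had 128 and 127 read pairs with VP64-MyoD, 0 and 0 with WT-MyoD, and 1 and 0 in untreated cells. The level with VP64-MyoD was 5.50 and 4.85 CPM. That level was 84.0-fold above the limit of 3 read pairs over the WT-MyoD group. This fold takes the VP64-MyoD level as measured and leaves out its counting error. No fold is given over untreated cells, which had a single read pair. The WT-MyoD and untreated groups both lay under the limit, so no fold is given between them.

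KCNQ1 shares its imprinted region with the antisense RNA KCNQ1OT1, which begins inside it, and with the growth inhibitor CDKN1C. KCNQ1OT1 overlaps exons of KCNQ1 on the other strand and was abundant everywhere, with 4385 and 4751 read pairs for VP64-MyoD, 3477 and 4121 for WT-MyoD, and 3589 and 3494 in untreated cells. The WT-MyoD libraries thus held many KCNQ1OT1 read pairs and no KCNQ1 read pair. KCNQ1OT1 was not called different in any of the 3 comparisons (edgeR adjusted p = 0.095 for VP64-MyoD over untreated, 0.64 for WT-MyoD over untreated and 0.26 between the forms). CDKN1C stood at 141 ± 11 CPM with VP64-MyoD, at 5.78 ± 0.32 CPM with WT-MyoD and at 2.16 ± 0.10 CPM in untreated cells (SD, n = 2). Unlike KCNQ1, it had reads in all 6 libraries.

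ATP1B4 was higher with VP64-MyoD than in either other group. It stood at 4.47 and 4.20 CPM with VP64-MyoD, at 0.459 and 0.487 CPM with WT-MyoD, and at 0.441 and 0.318 CPM in untreated cells. In read pairs that was 104 and 110, against 13 and 10 with WT-MyoD and 11 and 7 in untreated cells. The log2 fold change was 3.49 over untreated (SE 0.26, edgeR adjusted p = 1.1e-08) and 3.19 over WT-MyoD (SE 0.25, edgeR adjusted p = 2.9e-08). WT-MyoD was not called different from untreated (log2 fold change 0.30, 95% interval -0.44 to 1.04, edgeR adjusted p = 0.51).

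FXYD1, the pump regulator, rose with both forms from a low level. It stood at 1.12 and 0.992 CPM with VP64-MyoD, at 1.62 and 1.56 CPM with WT-MyoD, and at 0.241 and 0.318 CPM in untreated cells. These values rest on 26 and 26 read pairs with VP64-MyoD, 46 and 32 with WT-MyoD, and 6 and 7 in untreated cells. Relative to untreated cells the log2 fold change was 1.91 for VP64-MyoD (SE 0.36, edgeR adjusted p = 2.4e-04) and 2.51 for WT-MyoD (SE 0.34, edgeR adjusted p = 1.6e-05). Both VP64-MyoD libraries lay below both WT-MyoD libraries. That difference did not pass (log2 fold change of -0.60 with SE 0.28, adjusted p = 0.079 by edgeR), but did with counts halved to read pairs (edgeR adjusted p = 0.048), with values from 0.048 to 0.293 over all settings tried.

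**Figure D2:**
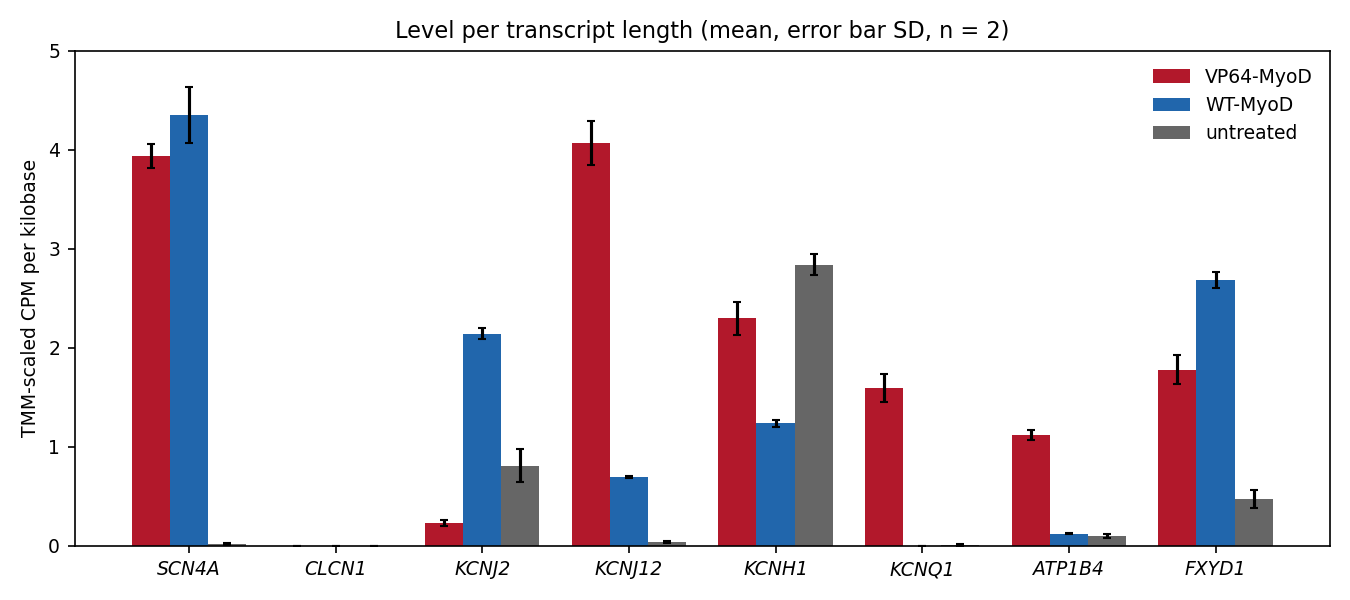
Mean level per transcript length in TMM-scaled CPM per kilobase for the 8 genes, with VP64-MyoD, WT-MyoD and untreated bars from left to right and error bars for the SD of 2 libraries. KCNJ12 and SCN4A lead with VP64-MyoD at 4.07 and 3.94, SCN4A leads with WT-MyoD at 4.35, and KCNH1 leads in untreated cells at 2.84.

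Ordered by level per kilobase, the VP64-MyoD libraries had KCNJ12 (4.07 ± 0.22) and SCN4A (3.94 ± 0.13) first, which overlapped, then KCNH1 (2.30 ± 0.16). FXYD1 (1.78 ± 0.15) and KCNQ1 (1.59 ± 0.14) followed and also overlapped, before ATP1B4 (1.12 ± 0.05), KCNJ2 (0.23 ± 0.03) and CLCN1 at 0. With WT-MyoD the order was SCN4A (4.35 ± 0.28), FXYD1 (2.68 ± 0.08), KCNJ2 (2.14 ± 0.06), KCNH1 (1.24 ± 0.04), KCNJ12 (0.69 ± 0.01) and ATP1B4 (0.122 ± 0.005), with neighbours apart, and KCNQ1 and CLCN1 at 0. Untreated cells had KCNH1 first (2.84 ± 0.11), then KCNJ2 (0.81 ± 0.17), FXYD1 (0.47 ± 0.09) and ATP1B4 (0.098 ± 0.023), with KCNJ12, SCN4A and KCNQ1 all under 0.05. All values are SD with n = 2 and assume that reads fall evenly along the transcript, which is least sure for FXYD1, whose transcripts are the shortest, at 592 and 594 bases.

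Of the 7 genes not chosen for their values, 6 were tested, since CLCN1 had no read. Of these 6, 4 were higher and 2 lower with VP64-MyoD than in untreated cells. Over the 15778 genes and unnamed transcripts tested, 33.0% were higher and 30.0% lower, 63.1% in either direction. With WT-MyoD 4 were higher and 1 lower than untreated, against 25.7% and 22.2% over all tested, 47.9% in either direction. Between the forms 3 were higher and 1 lower with VP64-MyoD, against 28.4% and 28.2%, 56.6% in either direction. The comparisons over untreated share the untreated libraries. Since the genes were listed with results known and a gene silent in untreated cells enters the test only where it is high, these counts describe the list and support nothing further.

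**Figure D3:**
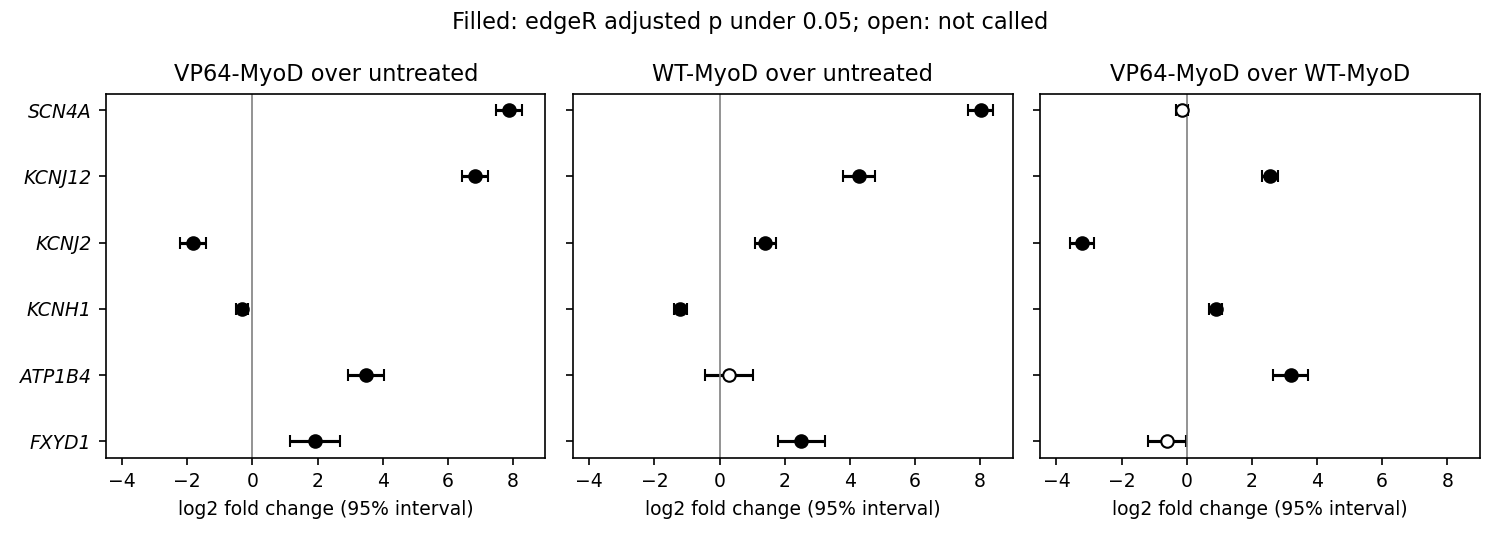
Log2 fold change with its 95% interval for the 6 tested genes in the 3 comparisons, filled where the edgeR adjusted p is under 0.05 and open where it is not. KCNJ2 lies at -1.82 for VP64-MyoD and at 1.41 for WT-MyoD over untreated, and SCN4A lies at -0.14 between the forms.

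The genes closest to each member in pattern were found by the smallest root mean square difference of mean-centred log2(CPM + 0.1) over the 6 libraries. SCN4A was nearest to UCP2 (0.157), MYCL (0.307) and SGCA (0.374), the last encoding a sarcoglycan of the muscle membrane. KCNJ2 was nearest to SLC7A14 (0.155), LEISA1 (0.159) and ACE (0.193). For KCNJ12 they were MYOM3 (0.118), an M-band protein, COX6A2 (0.161), the muscle form of a respiratory subunit, and KCNF1 (0.181), a silent potassium channel subunit. NUAK1 (0.047), ZNF281 (0.061) and ALPK2 (0.063) were nearest to KCNH1. KCNQ1 was nearest to DNAH8 (0.188), MSS51 (0.231) and UGT2B4 (0.268). ATP1B4 was nearest to ADCY2 (0.124), SLC38A3 (0.142) and CRTAM (0.146), and FXYD1 to IFFO1 (0.056), CENPI (0.066) and TPX2 (0.103), of which CENPI and TPX2 act in mitosis. The 6 libraries fall into 3 groups, so likeness over them rests on few independent points.

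The relatives of the members were counted from lists, the members included and KCNQ1 left out. For each list below, the shares over all features tested were 33.0% higher and 30.0% lower for VP64-MyoD over untreated. They were 25.7% and 22.2% for WT-MyoD over untreated, and 28.4% and 28.2% between the forms. The list counts describe the lists only. Of 15 voltage-gated sodium channel genes 11 passed the filter. With VP64-MyoD 6 of these rose and 3 fell relative to untreated, with WT-MyoD 4 rose and 3 fell, and between the forms 6 were higher and 1 lower with VP64-MyoD. The median log2 fold changes were 1.00, 0.01 and 0.79, against 0.03, 0 and 0.02 over all tested. SCN7A reached 12.6 ± 2.4 CPM in VP64-MyoD libraries and 5.81 ± 0.58 CPM with WT-MyoD, against 0.043 ± 0.004 CPM in untreated cells. The β-subunit gene SCN3B stood at 6.90 ± 0.69 CPM with VP64-MyoD, at 0.50 ± 0.11 CPM with WT-MyoD and at 0.49 ± 0.05 CPM in untreated cells, and was called higher with VP64-MyoD than in either. The sodium leak channel NALCN fell by 2.05 with VP64-MyoD and by 2.53 with WT-MyoD on the log2 scale (edgeR adjusted p = 5.6e-12 and 9.8e-13). SCN9A was called lower than untreated with both forms, at 47.1 ± 1.1 CPM with VP64-MyoD, 27.2 ± 1.9 with WT-MyoD and 54.8 ± 0.09 in untreated cells. Between the forms SCN9A was higher in VP64-MyoD than in WT-MyoD by a log2 fold change of 0.79.

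Among 16 chloride channel genes, 13 passed. Relative to untreated, 5 rose and 7 fell with VP64-MyoD and 3 rose and 5 fell with WT-MyoD, and 2 were higher and 7 lower between the forms (median log2 fold changes -0.27, -0.17 and -0.30). While CLCN1 had no read, the endosomal exchanger gene CLCN5 stood at 156 ± 0.75 CPM in VP64-MyoD libraries and at 205 ± 19 CPM with WT-MyoD, against 48.8 ± 0.58 CPM in untreated cells. The calcium-activated channel ANO1 stood at 4.11 ± 0.40 CPM with VP64-MyoD, and had 2 read pairs with WT-MyoD and 7 in untreated cells. WT-MyoD was not called different from untreated for ANO1 (edgeR adjusted p = 0.051). CLCN7 fell by 1.09 with VP64-MyoD and fell by 0.54 with WT-MyoD on the log2 scale. CLCN4 was called higher than untreated with both forms, at 14.7 ± 0.30 CPM with VP64-MyoD, 32.9 ± 0.36 with WT-MyoD and 8.94 ± 0.23 in untreated cells. Between the forms CLCN4 was lower in VP64-MyoD than in WT-MyoD (log2 fold change -1.16).

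Of 18 inward rectifier genes with their regulators, 11 passed. Relative to untreated, 5 rose and 4 fell with VP64-MyoD and 5 rose and 1 fell with WT-MyoD, and 3 were higher and 4 lower between the forms (median log2 fold changes 0.67, 0.60 and 0.21). KCNJ12 and KCNJ18, whose reads can fall on each other, are both among those higher in each comparison. KCNJ6, a G-protein-gated channel of neurons, stood at 28.7 ± 1.3 CPM in VP64-MyoD libraries and at 54.8 ± 12 CPM with WT-MyoD, against 0.66 ± 0.09 CPM in untreated cells. KCNJ11, the pore of the ATP-sensitive channel of muscle, stood at 9.77 ± 1.2 CPM with VP64-MyoD, at 1.74 ± 0.22 CPM with WT-MyoD and at 0.64 ± 0.06 CPM in untreated cells. ABCC9, a regulatory subunit of that channel, fell by 1.01 with VP64-MyoD and fell by 0.81 with WT-MyoD on the log2 scale.

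Of 10 KCNQ and KCNE genes 7 passed, and 6 were counted. Of these 3 rose and 3 fell with VP64-MyoD, 3 rose and 2 fell with WT-MyoD, and 3 were higher and 2 lower between the forms (median log2 fold changes -0.09, 0.83 and 0.12). KCNQ5 stood at 38.8 ± 1.5 CPM in VP64-MyoD libraries and at 115 ± 4.2 CPM with WT-MyoD, against 51.2 ± 0.47 CPM in untreated cells. It was called lower with VP64-MyoD and higher with WT-MyoD (log2 fold changes over untreated -0.40 and 1.17), the signs seen for KCNJ2. KCNE5 and KCNE4, subunits that bind KCNQ1, stood at 3.97 ± 0.71 and 55.5 ± 0.25 CPM with VP64-MyoD, at 0.40 ± 0.06 and 28.2 ± 1.5 CPM with WT-MyoD, and at 0.106 ± 0.021 and 48.0 ± 0.51 CPM in untreated cells.

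Only 2 of 8 ether-a-go-go family genes passed. KCNH2, known from cardiac repolarisation, rose where KCNH1 fell: it stood at 3.44 ± 0.003 CPM in VP64-MyoD libraries and at 4.56 ± 0.80 CPM with WT-MyoD, against a single read pair in untreated cells. The counting ratio over untreated was 161 for VP64-MyoD, with an interval from 28.6 to 6410, and 218 for WT-MyoD, with an interval from 38.7 to 8650. The family's median log2 fold changes, 3.43, 3.19 and 0.24, are each the midpoint of those 2 genes.

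Of 15 sodium pump and FXYD genes 11 passed. Relative to untreated, 7 rose and 2 fell with VP64-MyoD and 6 rose and 2 fell with WT-MyoD, and 5 were higher and 4 lower between the forms (median log2 fold changes 1.91, 0.42 and -0.01, the first 1.15 with genes silent in untreated cells at their bound). FXYD6, a regulator related to FXYD1, had no read in untreated cells and was at least 99.3-fold higher with VP64-MyoD and at least 25.6-fold higher with WT-MyoD. ATP1B1, a β-subunit of the pump in most cells, fell by 1.54 with VP64-MyoD and by 1.22 with WT-MyoD on the log2 scale.

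**Figure D4:**
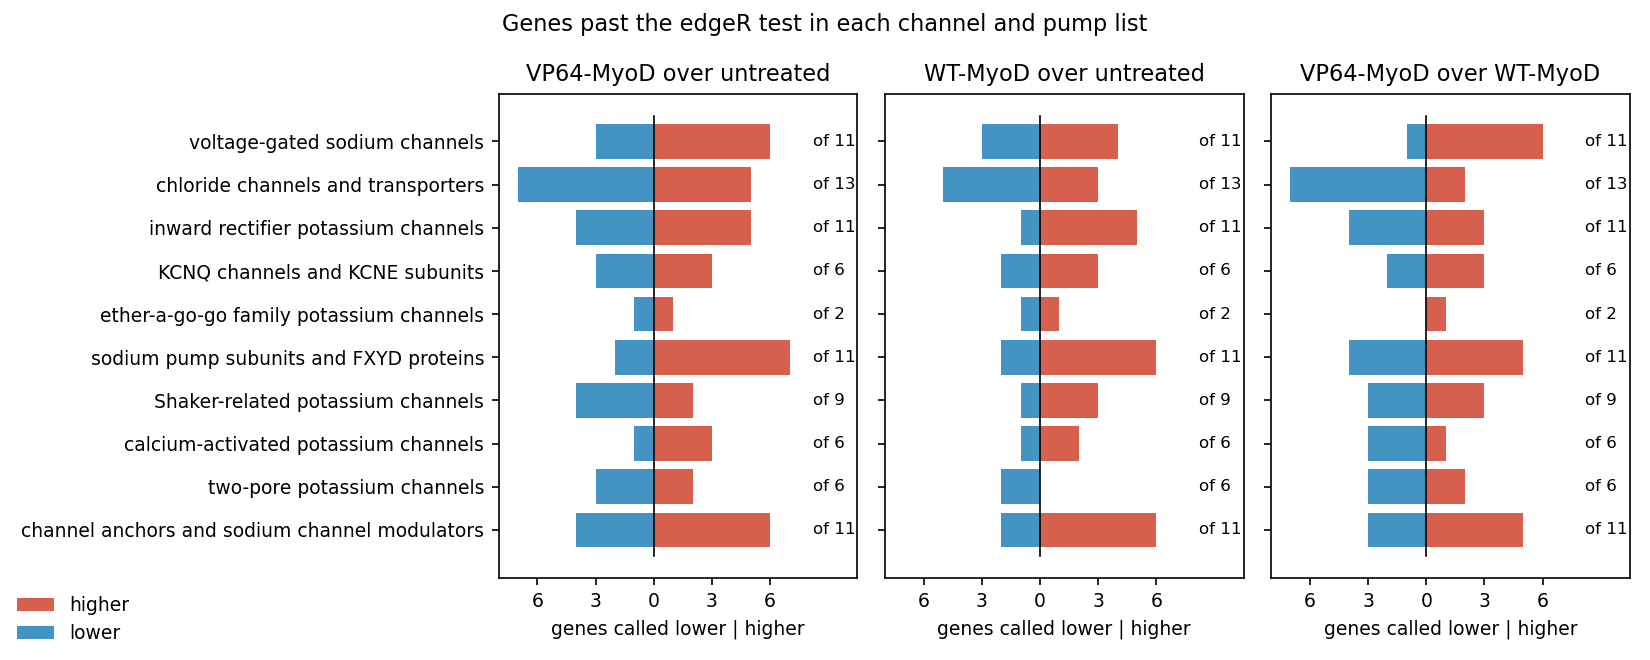
Number of genes called higher (right of 0) and lower (left of 0) by edgeR in each of 10 lists, for the 3 comparisons, with the number tested at the right edge of each panel. The sodium pump list has 7 genes higher and 2 lower for VP64-MyoD over untreated, and the chloride channel list has 2 higher and 7 lower between the forms.

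Of 20 Shaker-related potassium channel genes 9 passed, with 2 higher and 4 lower for VP64-MyoD over untreated, 3 higher and 1 lower for WT-MyoD over untreated, and 3 and 3 between the forms (median log2 fold changes 0.20, 0.03 and 0.74). KCND2 was lower with VP64-MyoD and higher with WT-MyoD than untreated, at 5.79 ± 0.83 CPM with VP64-MyoD, 36.9 ± 3.5 CPM with WT-MyoD and 15.1 ± 0.59 CPM in untreated cells. KCND3 fell by 3.66 with VP64-MyoD and by 5.07 with WT-MyoD. KCNAB1 was higher and KCNAB2 lower in VP64-MyoD than in WT-MyoD (log2 fold changes 1.77 and -0.92). Of 9 calcium-activated potassium channel genes 6 passed, with 3 higher and 1 lower, 2 and 1, and 1 and 3 in the same comparisons (median log2 fold changes 0.46, 0.09 and -0.10). KCNN3, the small-conductance channel also known from denervated muscle, stood at 51.7 ± 2.3 CPM in VP64-MyoD libraries and at 157 ± 17 CPM with WT-MyoD, against 0.86 ± 0.26 CPM in untreated cells. The large-conductance channel KCNMA1 fell by 1.29 with VP64-MyoD and by 0.73 with WT-MyoD. KCNMB4 rose by a log2 fold change of 1.14 with VP64-MyoD, and KCNN4 rose by 0.56 with VP64-MyoD and by 1.19 with WT-MyoD.

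Of 15 tandem-pore potassium channel genes 6 passed, with 2 higher and 3 lower for VP64-MyoD over untreated, 0 and 2 for WT-MyoD over untreated, and 2 and 3 between the forms (median log2 fold changes -0.43, -0.19 and -0.04). KCNK17 had 196 read pairs with VP64-MyoD, 1 with WT-MyoD and 0 in untreated cells, and KCNK5 had 45, 0 and 0. With VP64-MyoD these are 62.0-fold and 14.2-fold above the untreated limit of 3 read pairs. KCNK2 stood at 95.05 ± 1.6 CPM with VP64-MyoD, at 228 ± 3.8 CPM with WT-MyoD and at 243 ± 1.5 CPM in untreated cells. On the log2 scale KCNK15 fell by 5.35 with VP64-MyoD and fell by 4.07 with WT-MyoD, and KCNK6 fell by 0.79 with VP64-MyoD and fell by 0.29 with WT-MyoD. Of 12 channel anchors and sodium channel modulators 11 passed, with 6 higher and 4 lower, 6 and 2, and 5 and 3 in the same comparisons (median log2 fold changes 0.45, 0.65 and 0.24). The caveolin of muscle, CAV3, stood at 54.2 ± 3.2 CPM in VP64-MyoD libraries and at 34.0 ± 1.2 CPM with WT-MyoD, against 0.12 ± 0.11 CPM in untreated cells. SNTB1, a syntrophin, rose by log2 fold changes of 2.42 and 1.47, and FGF11 by 5.92 and 4.37. The ankyrin gene ANK1 was higher in VP64-MyoD than in WT-MyoD (log2 fold change 2.83) and ANK2 lower (-0.95).

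Several of these genes are also known from heart and nerve, so markers of those cells were read. The 10 cardiac markers summed to between 521 and 545 CPM with VP64-MyoD, between 160.3 and 169.8 CPM with WT-MyoD, and between 0.273 and 0.682 CPM in untreated cells. Nearly all of that was TNNT2, which immature skeletal muscle is also known to express, at 521 to 544 CPM with VP64-MyoD, 160.2 to 169.7 CPM with WT-MyoD and 0.273 to 0.642 CPM in untreated cells. Of the 10 markers 1 was called higher in each of the 3 comparisons, and NKX2-5, MYL7, MYBPC3 and HCN4 were at 0 with VP64-MyoD. The 12 neuron markers summed to between 126 and 130.1 CPM with VP64-MyoD, between 80.2 and 87.0 CPM with WT-MyoD, and between 43.1 and 44.4 CPM in untreated cells, with SNAP25, ELAVL3 and ELAVL4 at 0 with VP64-MyoD. Of these 12, 6 were called higher and 1 lower for VP64-MyoD over untreated, 3 and 1 for WT-MyoD over untreated, and 4 and 2 between the forms. Beside these and the other marker counts, 63.1%, 47.9% and 56.6% of all features tested were called in either direction in the same comparisons. Those shares cover tested features only, while ELAVL3 and ELAVL4 among the 12 were at 0 in every group. For VP64-MyoD over untreated, 33.0% of all features tested were called higher and 30.0% lower, beside the 6 and 1 neuron markers. The neuron marker TUBB3 stood at 51.1 to 52.3 CPM with VP64-MyoD and 34.5 to 35.2 CPM in untreated cells. With WT-MyoD it was at 61.4 to 67.1 CPM. The rise of the neuron sum with VP64-MyoD was thus not that of TUBB3 alone. Whether the counts set these markers apart from other genes was not tested. The 10 fibroblast markers summed to between 27847 and 30241 CPM with VP64-MyoD, between 26739 and 30691 CPM with WT-MyoD, and between 42132 and 44420 CPM in untreated cells, with 1 higher and 8 lower, 3 and 5, and 1 and 8 in the same comparisons. The 8 glial markers summed to 27.9 to 28.2 CPM with VP64-MyoD, 72.5 to 74.9 CPM with WT-MyoD and 42.7 to 45.3 CPM in untreated cells. Most of that was MBP, at 26.7 to 27.2, 69.0 to 71.5 and 40.9 to 43.7 CPM in the same order. In the 3 comparisons 1 glial marker was called higher and 2 lower, 2 and 0, and 0 and 2. The 7 smooth muscle markers, DES among them, summed to 1913 to 2155 CPM with VP64-MyoD, 454 to 475 CPM with WT-MyoD and 685 to 720 CPM in untreated cells. ACTA2 led them, at 643 to 658, 209 to 223 and 537 to 572 CPM in the same order. In the 3 comparisons 3 smooth muscle markers were called higher and 2 lower, 2 and 3, and 4 and 1. The 10 epithelial, endothelial and blood markers summed to 53.0 to 53.8 CPM with VP64-MyoD, 182 to 187 CPM with WT-MyoD and 85.3 to 85.6 CPM in untreated cells. Most of that was CD68, at 42.9 to 44.7, 175 to 178 and 66.0 to 67.6 CPM in the same order. Of these 10, 1 was called higher and 3 lower for VP64-MyoD over untreated and 1 and 2 for WT-MyoD over untreated. Between the forms 4 were higher and 3 lower with VP64-MyoD, while the sum was lower. The part of these levels in the channel results was not tested.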

How the data were processed

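Tools named per the submitters' processing notes are CASAVA, Bowtie (version 0.12.9) and DESeq (version 1.10.1), with hg19 as the build; the step each served is not given in the sources used here. The deposited count table holds read counts per RefSeq transcript for 6 libraries. The authors' deposited comparison table gives, per the file headers, the linear fold or ratio, the log2 fold change and p-values over untreated; only its log2 fold changes of SCN4A, KCNJ2 and KCNJ12 were used.

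Of 40710 rows, 39324 were named by accession through RefSeq, 517 through GENCODE 29, 868 stayed unnamed (0.601% to 0.744% of counts) and 1 was the mouse transgene. Rows were summed per gene. All 6 libraries entered 1 fit in edgeR 4.0.16 (R 4.3.3; TMM; filterByExpr, minimum count 10, total 15; two-sided quasi-likelihood test; 3 residual degrees of freedom), with Benjamini-Hochberg adjustment over all features and calls at adjusted p under 0.05. SE is the absolute log2 fold change over the root of F. The procedure was tested on simulated counts. Counting intervals are exact (scipy 1.17.1) and, like the limit of 3 read pairs, cover counting error only.

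The members, lists and tests were chosen with earlier results of these data known. Named relatives are, per list and comparison, up to 3 called genes with the smallest adjusted p; some of these are not reported here. Alternatives were other size factors, filters, DESeq2 1.42.0, limma-voom (limma 3.58.1), fits of 2 groups, a replicate block, read pairs and leaving out each library. Summing KCNJ12 with KCNJ18 was added after seeing the data.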

Additional observations from a re-analysis of the deposited data

Results flagged for a closer look

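KCNJ2 was called in opposite directions by the MyoD forms, lower with VP64-MyoD and higher with WT-MyoD than untreated, and the direct test of that difference passed. The log2 fold change of VP64-MyoD over WT-MyoD was -3.23 (SE 0.17, edgeR adjusted p = 3.4e-10), with both VP64-MyoD libraries below, and both WT-MyoD libraries above, both untreated libraries. Transgene level moved between the same groups, with a mean of 106 ± 13 CPM for VP64-MyoD, against 886 ± 180 CPM for WT-MyoD (SD, n = 2), and its part in the difference was not tested.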

How the results depend on the processing

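Over 15 other settings of the fit, 6 of which leave out 1 library, the 18 tested fold changes of the members gave 270 values, with the added sum of KCNJ12 and KCNJ18, that kept their direction and their side of the threshold, and 3 that changed side. The changes were KCNH1 for VP64-MyoD over untreated, lost without untreated replicate 1 and without VP64-MyoD replicate 2, and FXYD1 between the forms, gained with counts halved to read pairs; the cause was not tested. No direction turned. The count of members called stayed between 5 and 6 for VP64-MyoD over untreated, at 5 for WT-MyoD over untreated and between 4 and 5 between the forms. A replicate block left these counts at 6, 5 and 4 and changed no call. Replicate numbers shared across groups did not mark a pairing in the labels, and the correlation of same-numbered deviations was 0.02 for VP64-MyoD with untreated, 0.03 for WT-MyoD with untreated and 0.01 between the forms. Without 1 or the other untreated library, the log2 fold change of SCN4A over untreated lay between 7.38 and 8.53 for VP64-MyoD and between 7.52 and 8.68 for WT-MyoD; the cause was not tested. Depth limits CLCN1, KCNQ1 outside VP64-MyoD, and FXYD1.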
